A study of Mus musculus with 6 samples.

Results

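The input DNA of a methylation study was examined as a copy-number profile of the mouse liver. The study immunoprecipitated methylated DNA (MeDIP) and hybridised it in one colour, beside the total DNA of the same liver in the other colour. Values here came from the total DNA, labelled Cy3, and from no other channel. The 6 arrays were 3 livers of Mdr2-KO mice and 3 livers of Mdr2-/+ mice, the heterozygous controls, with 1 array per mouse. All mice were 12-month-old males of the FVB strain, and both genotypes carried the targeted allele, on 1 copy of the gene in the controls and on both copies in Mdr2-KO. The allele was made in another strain and bred into FVB. Whole liver was taken, so every value averages over hepatocytes and all other cells of the organ. Of 88737 probes on the array, 85840 had a position on the 19 autosomes, and 85777 of these carried no outlier flag on any array. Positions follow the mm8 build.

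Mdr2 (Abcb4) moves phosphatidylcholine into bile, and mice without it develop chronic bile-duct and liver inflammation and later liver tumours. Liver carcinomas commonly gain or lose whole chromosomes or arms, while a targeted allele can bring a small deletion at the gene and flanking DNA of the strain in which it was made. In a mouse bred to carry that allele on both chromosomes, a stretch missing from the flanking DNA has no copy left. Hepatocytes are often polyploid, but a doubling of all chromosomes leaves their proportions equal, and centring each array removes it. The profile therefore shows gains and losses relative to the middle of the genome, not ploidy.

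Each probe's log2 signal was centred on the array's median, and the median over the probes of a 5 Mb bin, of a chromosome or of a CpG island (CGI, here a run of 3 or more probes with starts at most 500 bp apart) was compared. Of 496 bins that held a probe, 485 with 10 or more probes were compared, and 13435 CGIs held a median of 5 probes. Differences are Mdr2-KO minus Mdr2-/+ on the log2 scale. If signal followed copies exactly, a gain of 1 copy in every cell would give 0.585 and a loss of 1 copy would give -1. Signal was not calibrated against a sample of known copy number here, so these sizes are references and not measurements. The 6 arrays correlated at 0.973 to 0.986 across probes, and 86.1% to 91.7% of probes were well above background. Slide 1 held replicate 1 of both genotypes, slide 2 the other Mdr2-/+ livers and slide 3 the other Mdr2-KO livers, so for the other 4 arrays the slide cannot be told apart from the genotype.

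No 5 Mb bin differed in input DNA between the genotypes at a size near that of a copy gained or lost in every cell. The differences ran from -0.21 to 0.15, with a median of 0.0013 and an SD of 0.044 over bins. Their 95% intervals lay between -0.50 and 0.24, so none reached 0.585 or -1. None of the 485 bins was called higher and none lower (percent called 0 in each direction, limma, adjusted p of at least 0.659). An unadjusted limma p under 0.05 was found for 18 higher bins (3.71%) and 8 lower (1.65%). Where nothing differs, such a threshold passes on average a share of 0.05 of the features, both directions together. The 3 livers of one genotype lay wholly above those of the other in 32 bins that were higher in Mdr2-KO (6.6% of the bins) and in 21 that were lower (4.33%). None of these bins had a difference of 0.3 or more.

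**Figure D1:**
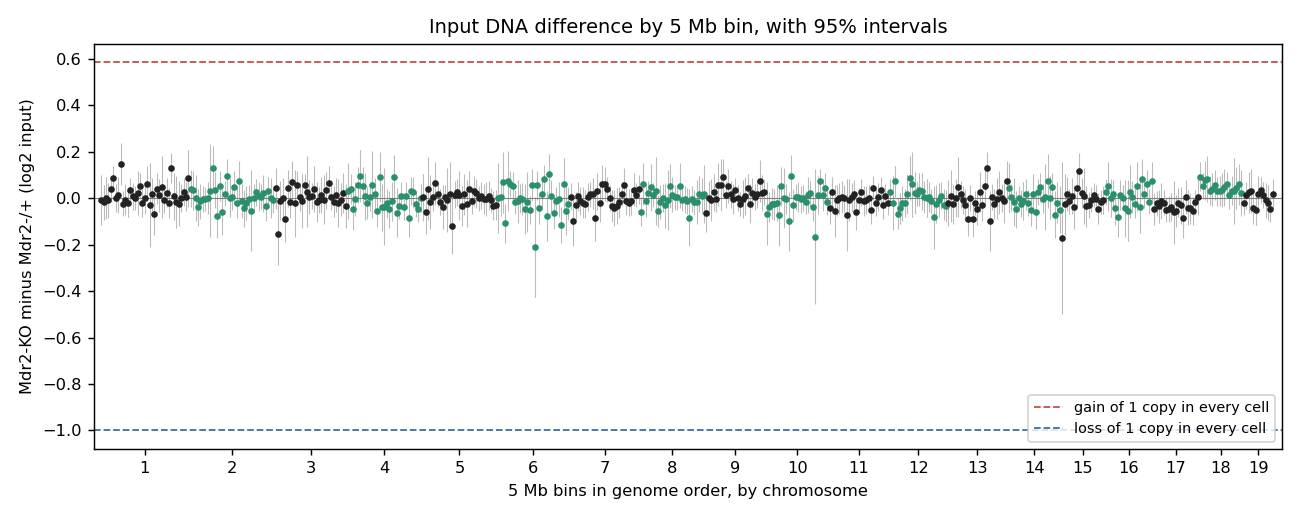
Difference in input DNA between Mdr2-KO and Mdr2-/+ livers (log2, n = 3 each) for 485 bins of 5 Mb in genome order, with colours alternating by chromosome. Grey lines are 95% intervals from limma, and dashed lines mark the size of 1 copy gained (0.585) or lost (-1) in every cell. All points lie between -0.21 and 0.15, and no interval reaches a dashed line.

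Probes within a bin span a wide range of levels, and a median of levels can jump between neighbouring probes. A second measure, added after this was seen, took each probe against its own mean over the 6 arrays before the median over the region, and is called the probe deviation below. The arrays were not centred again after this step, and Mdr2-/+ replicate 2 then read above 0 on every autosome (0.018 to 0.042). By probe deviation the bin differences narrowed to between -0.094 and 0.069, and the median half-width of their 95% intervals fell from 0.070 to 0.035. No bin was called in either direction by this measure (limma, adjusted p of at least 0.396). An unadjusted limma p under 0.05 was found for 10 higher bins (2.06%) and 18 lower (3.71%). Differences of adjacent bins correlated at -0.0053 by level and at 0.28 by probe deviation, over 456 pairs that share arrays and chromosome.

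None of the bins with the largest differences was called. The largest rise lay at 45 to 50 Mb of chromosome 1, where 15 probes were measured. There the Mdr2-/+ livers read -0.84, -0.85 and -0.95 and the Mdr2-KO livers -0.69, -0.79 and -0.72. The genotypes did not overlap in this bin, whose difference was 0.15 ± 0.039 (SE, n = 3 each), but its probe deviation differed by 0.025 ± 0.028. The other rises among the 5 largest were 0.13 at 45 to 50 Mb of chromosome 2, 0.13 at 160 to 165 Mb of chromosome 1, 0.13 at 80 to 85 Mb of chromosome 13 and 0.12 at 50 to 55 Mb of chromosome 15. By probe deviation these 4 bins differed by 0.042, 0.019, 0.038 and 0.027.

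The largest fall lay at 75 to 80 Mb of chromosome 6. Its 19 probes read -0.14, 0.23 and 0.12 in the Mdr2-/+ livers and -0.024, -0.14 and -0.25 in the Mdr2-KO livers, which overlap. The difference of -0.21 ± 0.093 turned to 0.015 ± 0.025 by probe deviation and to 0.12 between the 2 arrays of slide 1. The other falls were -0.17 at 0 to 5 Mb of chromosome 15, -0.17 at 100 to 105 Mb of chromosome 10, -0.15 at 10 to 15 Mb of chromosome 3 and -0.12 at 60 to 65 Mb of chromosome 5. The first of them held 20 probes and its controls were split: Mdr2-/+ replicate 1 read -0.32, below every Mdr2-KO liver (-0.096, -0.16 and -0.051), and the other controls, both on slide 2, read 0.28 and 0.25. Without replicate 1 the bin fell by 0.37 on the log2 scale and was called (limma, adjusted p = 0.0049).

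Single livers were also compared with the median of the 6 arrays, since a change carried by 1 mouse need not move a group mean. The SD of a liver's bin deviations was 0.035 to 0.058. The bin farthest from the median was the first of chromosome 15 in each control, at -0.25, 0.35 and 0.33 in replicates 1 to 3. In the Mdr2-KO livers it was 90 to 95 Mb of chromosome 12 (-0.19), 100 to 105 Mb of chromosome 10 (-0.24) and 75 to 80 Mb of chromosome 6 (-0.17). By probe deviation no bin of any liver departed by 0.3 or more, and these 6 values became -0.074, 0.042, 0.063, -0.024, -0.068 and 0.044. The extremes over all bins and livers by that measure were -0.11 and 0.18.

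Whole chromosomes differed by small amounts, with chromosome 17 lowest and chromosome 18 highest in Mdr2-KO. Both were called among the 19 autosomes, which makes 1 called in each direction (5.26% and 5.26%). Chromosome 17, over 4227 probes, read 0.026, 0.041 and 0.049 in the Mdr2-/+ livers and 0.0055, -0.00077 and -0.014 in the Mdr2-KO livers. All 3 Mdr2-KO livers lay below all 3 controls. The difference was -0.041 ± 0.0074 (SE, n = 3 each; limma, adjusted p = 1.1e-04). Chromosome 18, over 2601 probes, read -0.056, -0.060 and -0.079 in the Mdr2-/+ livers and -0.024, -0.011 and -0.023 in the Mdr2-KO livers. Here all Mdr2-KO livers lay above all controls, by 0.046 ± 0.0072 (limma, adjusted p = 4.3e-05). An exact permutation test over the livers, two-sided, gave p = 0.1 for each, the smallest that 3 against 3 can give. The remaining 17 autosomes were not called, and the intervals of all 19 lay between -0.057 and 0.061.

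**Figure D2:**
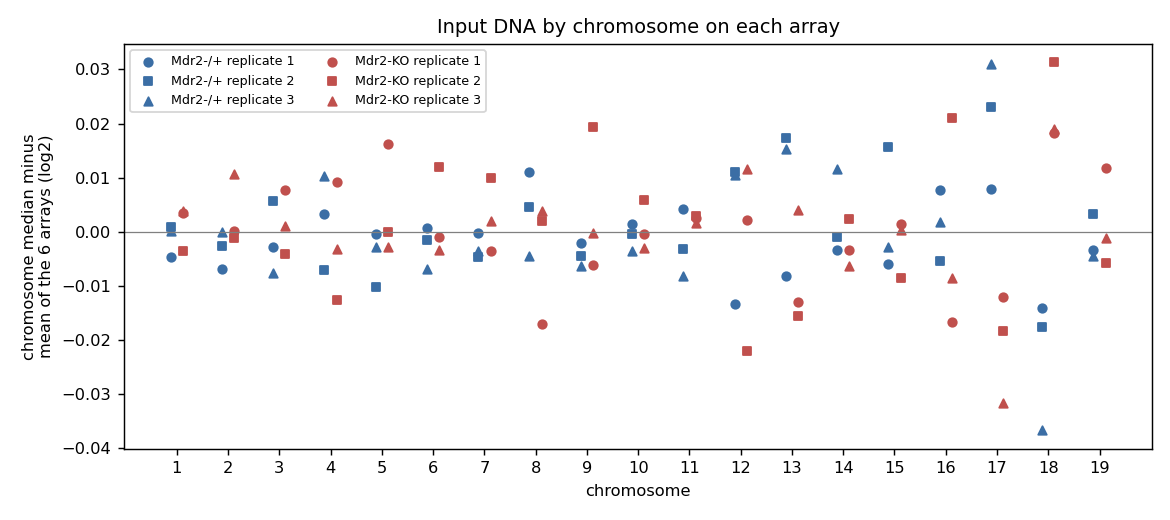
Median input DNA of each autosome on each array, as the difference from the mean of the 6 arrays (log2). Blue symbols are Mdr2-/+ livers, red symbols Mdr2-KO livers, and shapes mark replicates; the genotypes separate on chromosomes 17 and 18, where the differences were -0.041 and 0.046.

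The shift of chromosome 17 ran along its length. Of its 19 bins 17 were lower in Mdr2-KO by level and 19 by probe deviation, where 231 and 312 of all 485 bins were lower. By probe deviation every bin was also lower on chromosome 16 (20 bins) and chromosome 19 (13 bins), which were not called. By level 7 and 6 of those bins were lower. The bins of chromosome 17 ranged from -0.086 to 0.0065 by level, and in 5 of them all Mdr2-KO livers lay below all controls, beside 4.33% of all bins. Of its probes 61.6% were lower in Mdr2-KO, against 52.0% of all autosomal probes, and its median difference was below that of all autosomes in each of 5 groups of probes by brightness. By probe deviation chromosome 17 differed by -0.036 ± 0.011 and was called (limma, adjusted p = 0.025). That SE was the same on all 19 autosomes by this measure, so it does not give the spread of chromosome 17 alone. The call was lost with 3 of the 6 arrays left out in turn (Mdr2-/+ replicate 3 and Mdr2-KO replicates 1 and 3, limma, adjusted p of 0.059 to 0.25). It was also lost with the methods' t-test (adjusted p = 0.41). By level the 2 arrays of slide 1 differed by -0.020. A fixed slide block, which rests on that pair alone, gave the same -0.020, and the chromosome was not called. Slide as a random block gave -0.046 (limma, adjusted p = 9.3e-06). The random block also uses slides 2 and 3, where slide cannot be told apart from genotype, so it does not take slide out of the difference.

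On chromosome 18 all 18 bins were higher in Mdr2-KO by level, from 0.012 to 0.093, and 15 of 18 by probe deviation. Of its probes 42.6% were lower in Mdr2-KO, and its median difference was above that of all autosomes in each of the 5 brightness groups. As for chromosome 17, these counts come from the probes by which the chromosome was picked. The probe deviation of the chromosome differed by 0.021 ± 0.011 and was not called (limma, adjusted p = 0.40). The deviations of the controls, -0.014, 0.018 and -0.019, overlapped those of Mdr2-KO. The 0.018 belonged to Mdr2-/+ replicate 2, which read above 0 on every autosome by this measure, and was the lowest of that array. By level the slide 1 pair differed by 0.032, and the chromosome was not called under the fixed slide block. Slide as a random block gave 0.048 (limma, adjusted p = 5.6e-06), with the same limit as for chromosome 17. For scale, a gain of 1 copy in 5% of cells would give 0.036 and a loss -0.037 if signal followed copies, so shifts of this size are small against 0.585 and -1. Chromosome X, outside the autosomes compared, differed by -0.029 between the genotypes (exact permutation test over the livers, two-sided, p = 0.6).

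At the scale of CGIs, 1 locus stood apart, on proximal chromosome 5, with lower input signal in every Mdr2-KO liver. Whether the lower signal reflects fewer copies of the DNA was not tested. The knocked-out gene also lies on chromosome 5, but the files pair no probe with a gene and the annotation at hand uses another build, so whether this locus lies in Abcb4 was not determined. By level no CGI was called (percent called 0 in each direction, limma, adjusted p of at least 0.875). An unadjusted limma p below 0.05 was found for 293 CGIs higher (2.18%) and 401 lower (2.98%), about what that threshold passes where nothing differs. By probe deviation 1 of 13435 CGIs was called lower (0.00744%) and none higher. By this measure an unadjusted limma p below 0.05 was found for 242 higher (1.8%) and 483 lower CGIs (3.6%). The called CGI was chr5:8899514-8900127, which holds 3 probes. Its probe deviation was 0.70, 0.99 and 0.73 in the Mdr2-/+ livers and -0.82, -0.72 and -0.56 in the Mdr2-KO livers. Dim probes also entered these medians. The 0.99 was the value of a probe not well above background on any array. The -0.82 was that of a probe not well above background in any Mdr2-KO liver. The remaining values came from the probe that was well above background on all arrays. The genotypes lay far apart, with a difference of -1.51 ± 0.089 (SE, n = 3 each; limma, adjusted p = 1.0e-03). By level the CGI was not called (limma, adjusted p = 0.875), and its median there was that of a probe not well above background in any Mdr2-KO liver, described below. By probe deviation the call held with each liver left out in turn, at -1.63 to -1.41 (limma, adjusted p of 9.9e-04 to 0.0072). It was lost with the methods' t-test on the same values (adjusted p = 0.58), and with the normexp background correction the level difference turned to 0.26. On slide 1 the single Mdr2-KO liver differed from the single control by -1.51, as the difference between medians that came from different probes. Probe by probe, in order of position, that pair differed by -1.99, -1.50 and -1.11.

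Of the 3 probes, one was well above background on all 6 arrays. That probe, chr5:8899894-8899938, read 0.70, 0.65 and 0.74 in the Mdr2-/+ livers and -0.80, -0.72 and -0.56 in the Mdr2-KO livers. The spread within each genotype was small against the gap, and the controls averaged 2.61-fold more signal than Mdr2-KO. Its difference, -1.39 ± 0.083, had the lowest unadjusted p of the 85777 autosomal probes (1.9e-06; limma, adjusted p = 0.16 over all of them and 0.011 over those well above background on every array). No single probe was called in the full set. An unadjusted limma p below 0.05 was found for 1422 higher (1.66%) and 2439 lower probes (2.84%), about what that threshold passes where nothing differs. In Mdr2-KO this probe still gave a signal well above background on each array.

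The probe at chr5:8900083-8900127 was well above background in the 3 Mdr2-/+ livers and in none of the Mdr2-KO livers. It read -2.04, -1.06 and -0.89 in the controls and -3.15, -3.99 and -2.87 in Mdr2-KO. The lowest signal of any probe well above background was taken as the limit on each Mdr2-KO array. On that basis the controls averaged at least 2.40-fold more signal at this probe. The bound is for the means of log2 signal and not for each pair of livers. The probe at chr5:8899514-8899567 was not well above background on any array, and its values give no fold.

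The probes on either side differed by less. The nearest one before, 94.8 kb away at chr5:8804652-8804696, read 0.31, 0.20 and 0.24 in the controls and 0.43, 0.20 and 0.12 in Mdr2-KO, which overlap. Its difference was -0.0021, with a 95% interval from -0.24 to 0.23. The nearest after, 18.5 kb away at chr5:8918662-8918721, was not well above background on any array. The next one, chr5:8918741-8918789, was well above background on all arrays and read -0.38, -0.20 and 0.28 in the controls and -0.54, -0.54 and -0.45 in Mdr2-KO. All 3 Mdr2-KO livers lay below the controls, which were spread widely, and the difference of -0.41 ± 0.17 was not called (limma, adjusted p = 0.93). Among the 53 other probes within 550 kb, the median difference was 0.0018 and the genotypes did not overlap at 2 higher and 3 lower probes (3.77% and 5.66%, beside 4.28% and 5.29% of all autosomal probes). No probe was kept in the 94.8 kb before or the 18.5 kb after the CGI.

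**Figure D3:**
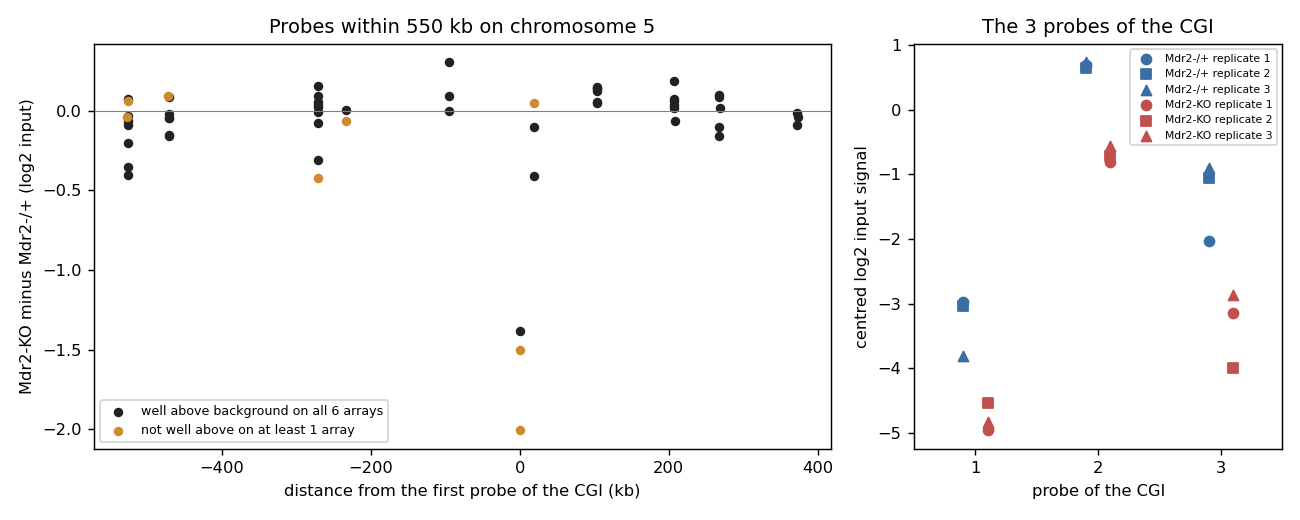
Left, difference in input DNA (log2, Mdr2-KO minus Mdr2-/+) of each probe within 550 kb of the CGI, by distance from its first probe in kb; colour shows whether the probe was well above background on all 6 arrays. Right, centred log2 signal of the 3 probes of the CGI in each liver; probe 1 was not well above background on any array and probe 3 on no Mdr2-KO array, while at probe 2 all 3 Mdr2-KO livers lie below all 3 controls. The other 53 probes have a median difference of 0.0018.

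The rest of proximal chromosome 5, where flanking DNA of the targeted allele could lie, held no bin that was called. Its 6 bins from 0 to 30 Mb differed by 0.0030, -0.058, 0.042, -0.017, 0.0064 and 0.064, in order along the chromosome. In each of these bins the genotypes overlapped (limma, adjusted p of 0.778 to 0.995). By probe deviation they differed by -0.0089, -0.018, 0.044, 0.020, -0.0020 and 0.034. Apart from the 3 probes of the CGI, 594 probes lay in this stretch. The genotypes did not overlap at 4.71% of them with Mdr2-KO higher and at 3.87% with Mdr2-KO lower, beside 4.28% and 5.29% of all autosomal probes. Both shares were close to those of all probes.

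No other CGI was called by either measure over the 6 arrays. The genotypes did not overlap and differed by 0.3 or more in 34 CGIs that were higher in Mdr2-KO (0.253% of all) and 74 that were lower (0.551%). With each array left out in turn these counts were 52 to 121 and 68 to 509, the highest of both without Mdr2-/+ replicate 1. By probe deviation the counts were 5 (0.0372%) and 21 (0.156%), and 5 to 13 and 20 to 149 with an array left out. Non-overlap is easier to reach with fewer livers in a genotype, so counts with an array left out are not on the same footing as those over the 6 arrays. The largest rises by level, each of 3 probes with 1 well above background on all arrays, began at 64252768 on chromosome 7 (1.18), 128880157 on chromosome 4 (1.1), 23578568 on chromosome 13 (0.91), 24189396 on chromosome 2 (0.89) and 120879640 on chromosome 10 (0.82). By probe deviation they differed by 0.46, 0.16, 0.13, 0.53 and 0.30. The other falls began at 152035211 on chromosome 2 (-1.40), 166144076 on chromosome 1 (-1.16), 106263660 on chromosome 12 (-0.86) and 117882531 on chromosome 6 (-0.85), and became -0.20, -0.65, -0.50 and -0.18 by probe deviation. The CGI of chromosome 2 rested on 1 liver: Mdr2-KO replicate 1 read -4.89, and the other 5 livers lay between -1.53 and -0.96.

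Among the 5406 CGIs with every probe well above background on all arrays, differences by probe deviation lay between -0.34 and 0.21. In this set 3 CGIs were lower in Mdr2-KO by 0.3 or more and none was higher, whereas the 8029 CGIs with a dimmer probe held 50 lower and 8 higher. In single livers, 12 to 168 CGIs lay by probe deviation 0.3 or more below the median of the 6 arrays and 6 to 132 above it. Within the 5406 bright CGIs these counts were 0 to 17 and 0 to 15.

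Small differences followed the brightness of the probe. When probes were split into 5 equal groups by mean signal, the median difference between genotypes was -0.043 in the dimmest group, then -0.010, 0.0061, 0.0039 and -0.0092 up to the brightest. In the dimmest group 24.6% of the probes were well above background on all arrays. The probe deviation of that group was -0.13, 0.14 and 0.12 in the Mdr2-/+ livers and 0.027, -0.12 and 0.063 in the Mdr2-KO livers, so Mdr2-/+ replicate 1 and Mdr2-KO replicate 2 were low and the genotypes overlapped. The part of this trend in the bin and CGI differences was not tested.

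**Figure D4:**
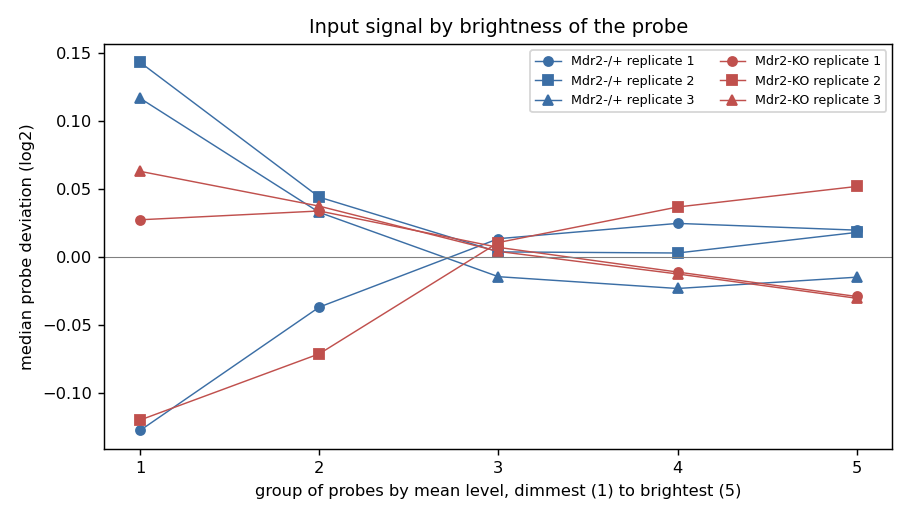
Median probe deviation (log2) of each array in 5 equal groups of autosomal probes, from the dimmest (1) to the brightest (5) by mean signal. Blue lines are Mdr2-/+ livers and red lines Mdr2-KO livers; in the dimmest group Mdr2-/+ replicate 1 (-0.13) and Mdr2-KO replicate 2 (-0.12) lie below the other 4 arrays.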

How the data were processed

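Total liver DNA was extracted with phenol and chloroform, labelled with Cy3 and hybridised to Agilent mouse CpG island arrays. The deposited scanner files hold, for each probe, the intensity that the authors obtained with Agilent Feature Extraction (version 10.5.1.1 per the file headers, 8.5.1.1 in the submitters' processing notes). The processed intensity had local background subtracted, a smooth surface over the array removed and a linear dye factor applied. Array position explained 99.99% of the surface step, and no dye LOWESS was applied. A deposited table of normalized MeDIP ratios and the red channel were not used.

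Control spots and 63 autosomal probes with an outlier flag were left out. The log2 intensity was centred on each array's median and summarised by its median over 5 Mb bins with 10 or more probes, autosomes, and CGIs. Genotypes were compared with limma 3.58.1 (R 4.3.3), as two-sided tests whose p-values were adjusted (Benjamini-Hochberg) across every feature of a level, with a threshold of 0.05, and single values with an exact permutation test. The methods' t-test, other normalizations, bin sizes, slide and replicate blocks, array weights and each array left out were tried as alternatives. The fit of bins was tested on simulated data with independent noise, where shifts of 0.585 and -1 had to be called. Calls of smaller shifts were not required, and slide effects shared by bins were not simulated. Named regions were the 5 largest rises and falls of bins and CGIs, the autosomes at either end, the bins of proximal chromosome 5 and the farthest bin of each liver. The members, lists and alternatives were chosen with earlier results of these data known, and the probe deviation was added after seeing the data. Precision was limited by 3 arrays per genotype. Figures were drawn with matplotlib 3.10.9.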

Additional observations from a re-analysis of the deposited data

How the results depend on the processing

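Limits: 3 mice per genotype, slide mixed with genotype on 4 arrays, uncalibrated signal and dim probes restrict what could be seen; whole-liver DNA dilutes a change in few cells. No GC correction was run, since probe sequences were not used here. The cause of the changes below was not tested unless said. No pairing of the livers by the numbers 1 to 3 was seen over bins (correlations of -0.14, -0.10 and 0.13). With 3 arrays per genotype that check cannot exclude a shared batch, and replicate 1 of both genotypes shared slide 1.

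The replicate block called no bin or CGI by level, and kept chromosome 17 (-0.041, adjusted p = 1.0e-04) and chromosome 18 (0.046, adjusted p = 3.9e-05). With probe deviations the replicate block called 1 autosome higher and 4 lower, and 1 CGI lower (chr5:8899514-8900127, -1.51, adjusted p = 0.012). Normexp, which could use only median signals, shrank the interquartile range of log2 signal from 1.94 to 2.17 over the arrays to 0.090 on Mdr2-KO replicate 1 and 0.26 on Mdr2-/+ replicate 3. It called 0 autosomes either way (chromosome 17 at -0.026, chromosome 18 at 0.024), left 3 CGIs higher and 2 lower at 0.3 or more, and turned the chromosome 5 CGI to 0.26.

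For autosomes, 2 were called higher with bright probes alone, the second being chromosome 9 (0.018). None was called in either direction with the mean over probes (chromosome 17 at -0.048, chromosome 18 at 0.0072), with slide as a fixed block (-0.020 and 0.032, also the slide 1 pair), with the methods' t-test after adjustment (adjusted p = 0.091 for both), or with probe deviations and slide as a fixed block (-0.029 and 0.028) or that t-test (-0.036 and 0.021). A fixed slide block rests on the slide 1 pair alone, 1 array of each genotype. Probe deviations called 0 higher (chromosome 18 at 0.021). With each array left out, chromosome 17 ranged from -0.048 to -0.036 and chromosome 18 from 0.039 to 0.050, always called, with 1 to 1 autosomes higher and 1 to 2 lower; without Mdr2-/+ replicate 1, chromosome 13 was also lower. Probe deviations with each array left out gave -0.040 to -0.026 (chromosome 17, called in 3 of 6: without Mdr2-/+ replicates 1 and 2 and Mdr2-KO replicate 2) and 0.013 to 0.031 (chromosome 18, called without Mdr2-/+ replicate 2), with 0 to 1 autosomes called each way.

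For bins, the methods' t-test without adjustment gave p under 0.05 for 19 higher and 4 lower of 485. That is no more than such a threshold passes where nothing differs. With each array left out 0 to 1 bins were called lower and 0 to 3 were lower by 0.3 or more, both highest without Mdr2-/+ replicate 1; probe deviations gave 0 to 2 called lower, the 2 without that array.

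For CGIs, the mean over probes called the chromosome 5 CGI (-1.63, limma, adjusted p = 0.0096). The methods' t-test without adjustment gave p under 0.05 for 298 higher and 320 lower of 13435, the chromosome 5 CGI among them (-2.01). These counts are no more than such a threshold passes where nothing differs, so being among them adds little. Slide as a fixed block called 1 higher (chr6:51108155-51108478, 2.39) and 1 lower (chr2:152035211-152035696, -3.56). Together with probe deviations it called the chromosome 6 CGI higher (2.04) and the chromosome 5 CGI lower (-1.51), 1 each. On slide 1 the chromosome 5 CGI differed by -1.11 by level, and with each array left out by -2.36 to -1.68 by level and -1.63 to -1.41 by probe deviation. Probe deviations with each array left out called 1 to 14 lower, the 14 without Mdr2-/+ replicate 1. CGIs at 0.3 or more numbered 11 higher and 29 lower with bright probes alone, 52 higher with loess, 5 and 21 by probe deviation, 14 and 47 with the mean, 132 and 157 at a size of 0.2, and 10 and 20 at 0.5. With each array left out they numbered 52 to 121 higher and 68 to 509 lower, and by probe deviation 5 to 13 and 20 to 149; the 509, 149 and 121 came without Mdr2-/+ replicate 1. Without Mdr2-KO replicates 1 and 3 the lower count was 180 and 162.

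For single probes, bright probes alone called 1 lower (chr5:8899894-8899938) and slide as a fixed block 2 higher. The methods' t-test without adjustment gave p under 0.05 for 1549 higher and 2157 lower of 85777, no more than that threshold passes where nothing differs.

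Of named regions, these turned sign. With bright probes alone: the bins 80 to 85 Mb of chromosome 13 (-0.019), 75 to 80 Mb of chromosome 6 (0.037), 0 to 5 Mb of chromosome 15 (0.048), 10 to 15 Mb of chromosome 3 (0.0088) and the CGI of chromosome 6 (0.010). With normexp: the bins of chromosome 10 (0.22), 3 (0.10) and 5 (0.058) and the CGIs of chromosomes 2 (152035211; 0.20), 1 (0.34) and 12 (0.33). With the mean: 45 to 50 Mb of chromosome 1 (-0.050) and the bin of chromosome 3 (0.0077). With slide as a fixed block or on slide 1: the bins of chromosomes 6 (0.12), 15 (0.23) and 10 (0.22). With probe deviations, alone, with the replicate block or with the t-test: the bins of chromosomes 6 (0.015) and 3 (0.0065). With probe deviations and the slide block: 45 to 50 Mb of chromosome 2 (-0.0062), the bins of chromosomes 6 (0.030), 10 (0.011) and 5 (0.023), and the CGIs of chromosomes 13 (-0.10) and 12 (0.038). With an array left out, none turned by level; by level and probe deviation together the ranges that crossed 0 were -0.023 to 0.17 (the 45 to 50 Mb bin of chromosome 1), -0.31 to 0.032 (the bin of chromosome 6), -0.37 to 0.00088 (15), -0.20 to 0.045 (3) and -0.16 to 0.032 (5), and for CGIs -0.0028 to 1.28 (chromosome 10) and -2.10 to 0.026 (152035211 of chromosome 2). The bins at 160 to 165 Mb of chromosome 1 and 50 to 55 Mb of chromosome 15 and the CGIs of chromosomes 7, 4 and 2 (24189396) kept their direction under every alternative run.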
